A study of Mus musculus with 32 samples.

Results

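Rhox1, Rhox5, Rhox6 and Rhox9 are 4 genes of the reproductive homeobox (Rhox) cluster of the mouse X chromosome, and they were followed here by name through 3 tables of one study of Xist-induced silencing. The PRO-seq table lists all 4 of them among 26440 genes, of which 902 are X-linked. The RNA table of undifferentiated cells lists 3 of them (Rhox1, Rhox6 and Rhox9) among 13888 genes, and the RNA table of differentiating cells lists the same 3 among 15012 genes. The RNA of Rhox5 was not analysed here.

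All 32 libraries came from TX1072, a single female embryonic stem cell line from a cross of C57BL/6 (B6) and CAST/EiJ (Cast) mice. In this line a doxycycline-responsive promoter drives Xist, the RNA that silences the X chromosome it is made from, on the B6 X chromosome, and the rtTA transactivator sits in the Rosa26 locus. The cells were grown in serum with LIF and the Gsk3 and MEK inhibitors called 2i, and 1 µg/ml doxycycline was added at 0 h, so the 0 h libraries are the untreated controls. Nascent transcription of undifferentiated cells was measured by PRO-seq, a run-on assay of engaged RNA polymerase, in 10 libraries: 2 each at 0 and 24 h and 1 each at 0.5, 1, 2, 4, 8 and 12 h. RNA of undifferentiated cells was sequenced in 12 libraries (0, 2, 4, 8, 12 and 24 h) and RNA of cells labelled as differentiated in 10 libraries (0, 8, 16, 24 and 48 h), 2 per time. How the second set was made to differentiate was not given in the sources used here. Every library of that set after 0 h had doxycycline. Time in doxycycline and time in differentiation therefore cannot be told apart in any change over this course. The study asks which features make an X-linked gene easy or hard to silence, and what differentiation adds. The labels do not state whether replicates are separate cultures, so p-values measure the spread between these libraries, which may be technical.

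Rhox genes encode homeodomain transcription factors and are best known from the testis, the epididymis, the ovary and the placenta. Rhox5, also called Pem, is the founding member of the family, and Rhox6 and Rhox9, also called Psx1 and Psx2, were first described in placenta and germ cells. In the mouse embryo the cluster is a known target of DNA methylation, which the enzymes Dnmt3a and Dnmt3b put on its promoters as cells leave the pluripotent state. The X-linked histone demethylase Kdm6a has been described as an activator of Rhox6 and Rhox9 in mouse embryonic stem cells.

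On mm10, Rhox1 lies at X 37213804 to 37222258 on the minus strand, Rhox5 at X 37804842 to 37808876 on the plus strand, Rhox6 at X 37826910 to 37829857 on the plus strand and Rhox9 at X 37899097 to 37901770 on the minus strand. None of them overlaps another annotated gene. The homeobox, the part of the coding sequence that encodes the DNA-binding homeodomain, shows how close Rhox6 and Rhox9 are and how far Rhox1 stands from both. The 180 bases are given from the GENCODE M21 transcripts on GRCm38, 5′ to 3′ on the coding strand, and capitals mark the bases that differ from Rhox6.
Rhox6: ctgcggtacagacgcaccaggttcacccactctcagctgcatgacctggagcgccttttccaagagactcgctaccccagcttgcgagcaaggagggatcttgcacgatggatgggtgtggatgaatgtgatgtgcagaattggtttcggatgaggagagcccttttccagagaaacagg
Rhox9: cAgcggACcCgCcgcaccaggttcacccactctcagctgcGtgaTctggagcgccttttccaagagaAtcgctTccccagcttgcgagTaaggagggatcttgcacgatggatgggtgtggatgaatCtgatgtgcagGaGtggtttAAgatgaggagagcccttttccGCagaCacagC
Rhox1: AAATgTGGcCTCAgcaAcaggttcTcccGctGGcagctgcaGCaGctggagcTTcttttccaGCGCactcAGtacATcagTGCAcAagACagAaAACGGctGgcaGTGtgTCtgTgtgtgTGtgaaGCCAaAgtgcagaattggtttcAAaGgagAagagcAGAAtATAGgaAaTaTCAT

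Rhox6 and Rhox9 differed at 19 of these 180 bases (89.4% identity), while Rhox1 differed from Rhox6 at 74 bases (58.9%) and from Rhox9 at 75 bases (58.3%). The homeobox of Rhox5 is 1 codon shorter and was not aligned. Rhox6 and Rhox9 have coding sequences of 684 bases each, that of Rhox1 has 675 bases, and the longest stretch that Rhox6 and Rhox9 share without a mismatch has 161 bases. It is shown because a read inside it cannot be placed in one gene or the other.
Rhox6 and Rhox9: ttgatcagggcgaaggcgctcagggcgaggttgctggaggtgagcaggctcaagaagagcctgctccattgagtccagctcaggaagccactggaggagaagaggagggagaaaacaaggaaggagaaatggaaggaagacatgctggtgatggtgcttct

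Of the 50-base windows of the Rhox6 transcript, 16.5% occurred unchanged in Rhox9. No window of that length was shared with Rhox1 or Rhox5. The levels and allele shares of Rhox6 and Rhox9 are therefore uncertain to the extent that the counting divided shared reads between them, and how it treated such reads was not given in the sources used here.

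One library stands apart. The first replicate of the undifferentiated RNA course at 2 h had RPKM values (reads scaled by gene length and library size) that summed to 362905, against 258659 to 284124 in the other 11 libraries of that course, and a median of 3.49 RPKM against 4.50 to 4.98. Results that rest on it are given with and without it. The 10 differentiating libraries summed to between 261277 and 267270. PRO-seq libraries held 3041199 to 6443286 reads assigned to an allele. The RNA tables give no read counts, so the depth behind an RNA value is unknown.

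In differentiating cells the RNA of Rhox1, Rhox6 and Rhox9 was slightly lower by 24 h and much lower at 48 h. Rhox6 was the most abundant at every time. At 0, 8, 16, 24 and 48 h its replicates read 16.7 and 18.7, 16.5 and 15.4, 12.4 and 12.5, 13.2 and 14.4, and 3.81 and 3.65 RPKM. The 48 h pair lay far below every earlier library. Over the same times Rhox1 read 2.65 and 2.65, 2.12 and 2.29, 2.69 and 2.90, 1.82 and 1.94, and 0.786 and 0.613 RPKM. Rhox9 read 1.71 and 1.99, 1.86 and 1.62, 1.24 and 1.17, 1.22 and 1.16, and 0.443 and 0.440 RPKM. For all 3 genes no library at 48 h overlapped a library of any other time. Over all genes, 84.3% of 12220 were called in either direction at 48 h against 0 h, and those without overlap were not counted. In bulk RNA, fewer cells that express a gene and less RNA per cell cannot be told apart.

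The fall at 48 h against 0 h passed the test for all 3 genes. Mean levels (± SD, n = 2) went from 17.7 ± 1.41 to 3.73 ± 0.12 RPKM for Rhox6, from 2.65 ± 0.00099 to 0.700 ± 0.12 RPKM for Rhox1 and from 1.85 ± 0.20 to 0.442 ± 0.0022 RPKM for Rhox9. On the log2(RPKM + 0.5) scale Rhox6 fell by 2.10 (SE 0.059, limma with Benjamini-Hochberg adjusted p = 1.2e-11). Rhox1 fell by 1.40 (SE 0.072, limma adjusted p = 2.6e-09) and Rhox9 fell by 1.32 (SE 0.072, limma adjusted p = 4.5e-09). The pseudocount of 0.5 understates the change of genes as low as Rhox1 and Rhox9. These 3 of 3 genes are read against a course in which much of the transcriptome moved: 39.9% of 12220 genes and 66.1% of 357 X-linked genes were called lower at 48 h. The median change was 0.03 over all genes and −0.47 over X-linked genes. Ordered from the largest fall among 356 X-linked genes other than Xist, Rhox6 was the 7th, Rhox1 the 29th and Rhox9 the 35th.

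**Figure D1:**
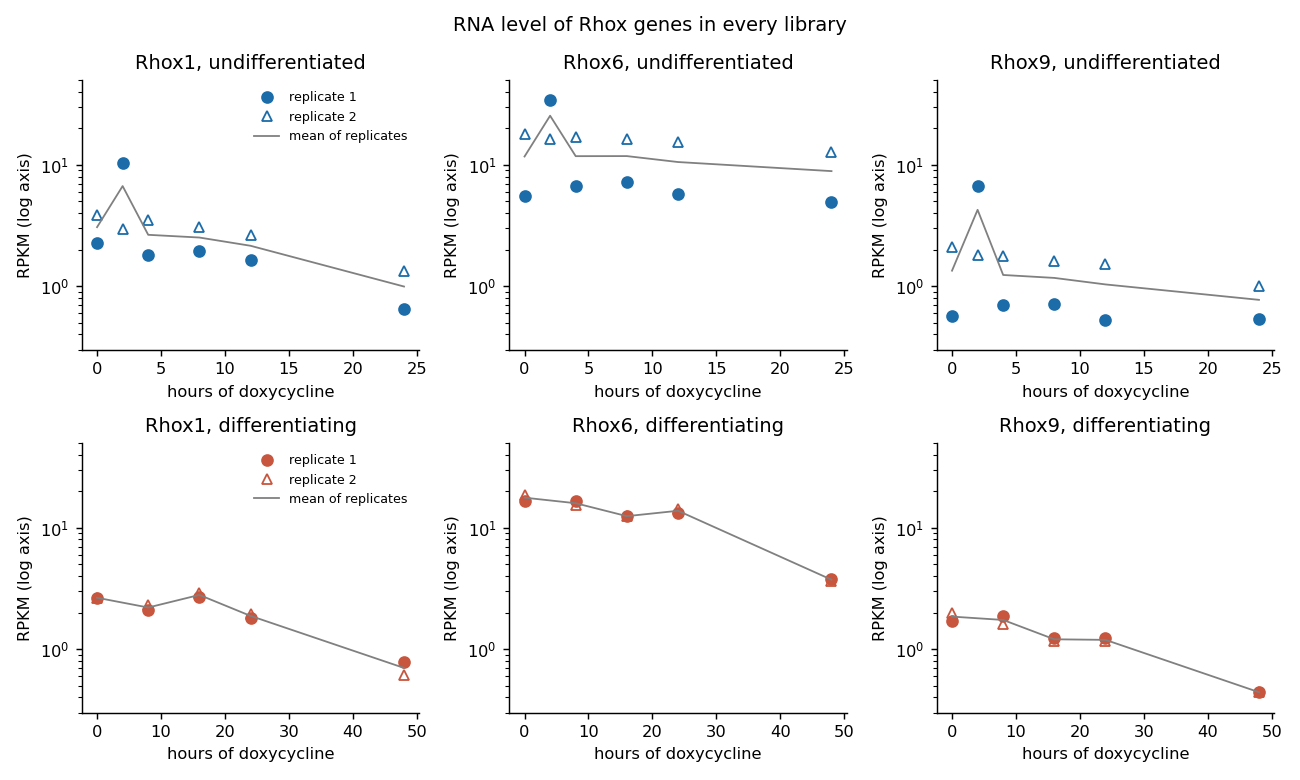
RNA levels (RPKM, log axis) of Rhox1, Rhox6 and Rhox9 against hours of doxycycline in undifferentiated and differentiating cells, each point being 1 library and the lines the means of the replicates. In differentiating cells the 48 h points lie lowest for all 3 genes, and in undifferentiated cells the Rhox6 libraries of replicate 1 other than 2 h (4.92 to 7.20 RPKM) lie below those of replicate 2 (12.8 to 17.8 RPKM).

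The earlier times showed smaller changes. At 24 h all 3 genes were lower than at 0 h, by a log2 change of −0.41 for Rhox1, −0.35 for Rhox6 and −0.47 for Rhox9 (limma adjusted p = 0.00028, 0.00022 and 8.2e-05), against 38.8% of all genes and 71.4% of X-linked genes called lower. Those sizes were close to the X-linked median of −0.44. At 16 h Rhox6 (−0.49, limma adjusted p = 1.5e-05) and Rhox9 (−0.46, adjusted p = 0.00012) were called lower and Rhox1 was not (0.06, adjusted p = 0.44), against 34.7% of all genes. At 8 h only Rhox1 passed (−0.22, limma adjusted p = 0.020), against 32.4% of all genes. Its call was lost without replicate 1 at 0 h (adjusted p = 0.076), replicate 2 at 0 h (0.074) or replicate 1 at 8 h (0.12). Rhox6 missed the threshold at 8 h (−0.15, limma adjusted p = 0.054) and passed it without replicate 1 at 0 h (adjusted p = 0.015) or replicate 1 at 8 h (0.037), while Rhox9 did not pass (−0.07, adjusted p = 0.42).

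Most of the fall came in the second day. Between 24 and 48 h, a contrast added after the values were seen, Rhox6 fell by 1.76 (limma adjusted p = 2.6e-10), Rhox1 fell by 0.99 (limma adjusted p = 1.1e-07) and Rhox9 fell by 0.85 (limma adjusted p = 4.5e-07) on the log2(RPKM + 0.5) scale. Over the same interval 35% of all genes and 39.5% of X-linked genes were called lower, and the X-linked median change was 0.02.

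The B6 share is the fraction of allele-assigned reads carrying the B6 allele. It gives the contribution of the chromosome that makes Xist relative to the Cast X chromosome, and does not tell whether the B6 output itself fell. The 3 genes started at different shares. At 0 h of the differentiating course Rhox1 stood at 66.5% and 72.5%, Rhox6 at 19.8% and 20.2%, and Rhox9 at 53.4% and 50.6%. The X-linked median at that time was 49.9%, so that Rhox1 leaned to the B6 allele and Rhox6 to the Cast allele before doxycycline. The undifferentiated course had the same order at 0 h, with 74.1% and 74.7% for Rhox1, 19.3% and 23.1% for Rhox6, and 57.9% and 53.1% for Rhox9.

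In differentiating cells after 8, 16, 24 and 48 h of doxycycline the B6 share of Rhox6 was 18.7% and 20%, 18.8% and 18.2%, 17.4% and 19.6%, and 7.95% and 11.6%. Only the 48 h pair lay below the rest. Rhox9 went to 50.1% and 43.9%, 46.7% and 37.1%, 45.8% and 45.3%, and 32.6% and 39.2% at the same times. Its 48 h pair lay below the 0 h pair but overlapped 1 library of 16 h. Rhox1 went to 62.9% and 70.4%, 69.2% and 69.3%, 56.3% and 58.3%, and 62.5% and 56.2%, so that both later pairs lay below the 0 h pair.

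At 48 h against 0 h the log2 odds of the B6 share changed by −1.15 for Rhox6 (SE 0.18, limma adjusted p = 0.0051) and by −0.94 for Rhox9 (SE 0.22, limma adjusted p = 0.026), and both passed. Rhox1 did not pass (−0.63, SE 0.21, limma adjusted p = 0.077). The share was called lower for 12.4% of all genes but for 93.7% of 285 X-linked genes, whose median change was −1.51. All 3 Rhox genes thus lost less B6 share than the median X-linked gene: from the largest fall, Rhox6 was the 196th, Rhox9 the 232nd and Rhox1 the 272nd of 285. With only the 4 libraries compared in the fit, neither Rhox6 (adjusted p = 0.067) nor Rhox9 (0.057) passed, and Rhox9 also missed the threshold without replicate 1 at 0 h (0.11), replicate 2 at 0 h (0.071) or replicate 1 at 48 h (0.12).

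At 8 and 16 h no share of the 3 genes passed, the nearest being Rhox9 at 16 h (−0.58, limma adjusted p = 0.17), against 3.31% and 6.43% of all genes called lower.

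At 24 h the chromosome-wide loss was already large and none of the 3 genes passed. The X-linked median share had gone from 49.9% to 26.3%, with a median log2 odds change of −1.39 and 90.9% of X-linked genes called lower, against 9.04% of all genes. The log2 odds of Rhox1 changed by −0.75 (limma adjusted p = 0.057), of Rhox9 by −0.37 (0.34) and of Rhox6 by −0.14 (0.68). Rhox6 was the 282nd, Rhox9 the 270th and Rhox1 the 235th of 285 X-linked genes ordered from the largest fall. Between 24 and 48 h the share of Rhox6 fell by 1.02 in log2 odds (limma adjusted p = 0.021), against 4.91% of all genes and 22.1% of X-linked genes called lower. That call was lost with only the compared libraries (adjusted p = 0.15) and without replicate 1 (0.059) or replicate 2 (0.090) at 24 h. Rhox9 (−0.57, adjusted p = 0.16) and Rhox1 (0.12, adjusted p = 0.77) did not pass.

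**Figure D2:**
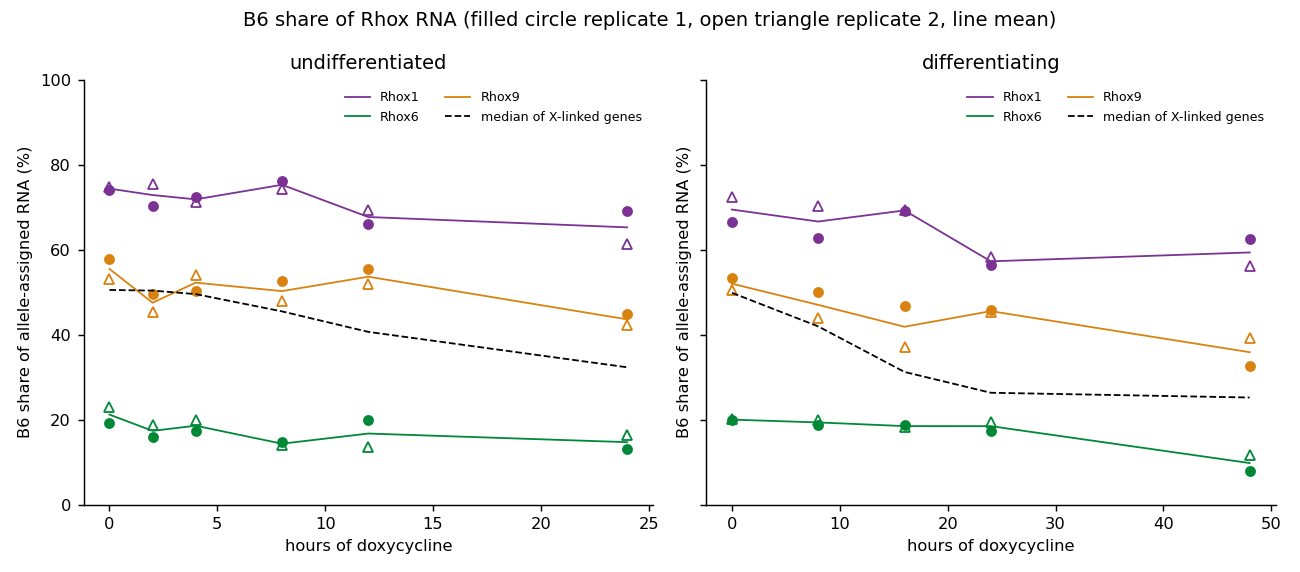
B6 share (percent of allele-assigned RNA reads) of Rhox1, Rhox6 and Rhox9 against hours of doxycycline in both courses, each point being 1 library, solid lines the means and the dashed line the X-linked median. The genes keep the order Rhox1, Rhox9, Rhox6 in both courses, and in differentiating cells they move less than the X-linked median, which goes from 49.9% to 25.2%.

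Multiplying RPKM by the share splits each level into a B6 and a Cast part, an analysis added after the values were seen. The inducible Xist is on the B6 X chromosome. In differentiating cells the Cast part of all 3 genes was lower at 48 h. The Cast part of Rhox6 stood at 13.4 and 14.9 RPKM at 0 h and at 3.51 and 3.22 RPKM at 48 h. That of Rhox1 stood at 0.889 and 0.729 RPKM and then at 0.295 and 0.268 RPKM, and that of Rhox9 at 0.798 and 0.985 RPKM and then at 0.299 and 0.267 RPKM. The groups did not overlap in any of the 3 genes, and the share of all genes for which this holds was not counted. On the log2(part + 0.5) scale the Cast part of Rhox6 fell by 1.92 (limma adjusted p = 1.1e-09), that of Rhox9 fell by 0.83 (limma adjusted p = 4.5e-06) and that of Rhox1 fell by 0.74 (limma adjusted p = 1.2e-05).

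The Cast part was called lower for 36.9% of all genes and 39.3% of X-linked genes, with an X-linked median of −0.03. From the largest fall of the Cast part, Rhox6 was the first of 285 X-linked genes, Rhox9 the 20th and Rhox1 the 25th. The B6 part of Rhox6 went from 3.31 and 3.77 RPKM to 0.303 and 0.423 RPKM, that of Rhox1 from 1.76 and 1.92 to 0.491 and 0.345 RPKM, and that of Rhox9 from 0.915 and 1.01 to 0.144 and 0.173 RPKM. Their log2 changes were −2.23, −1.35 and −1.15 (limma adjusted p = 4.0e-09, 2.4e-07 and 1.1e-06), against 38.1% of all genes and 88.4% of X-linked genes called lower and an X-linked median of −1.05. The pseudocount of 0.5 understates the changes of parts this low, in both parts of Rhox1 and Rhox9 and the B6 part of Rhox6. Their places among X-linked genes and their comparison with the X-linked median are affected by it.

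At 24 h the parts differed between the genes. The B6 part was lower for Rhox1 (−0.57, limma adjusted p = 0.00041), Rhox9 (−0.49, 0.0014) and Rhox6 (−0.41, 0.0037), against 34.5% of all genes and 89.5% of X-linked genes. The Cast part was lower for Rhox6 (−0.32, limma adjusted p = 0.0020) and Rhox9 (−0.27, 0.015), against 32.4% of all genes, while Rhox1 did not pass (−0.01, adjusted p = 0.96). A test of the difference between the genes was not made. In undifferentiated cells at 24 h the Cast part changed by −0.59 for Rhox1 (SE 0.47), −0.20 for Rhox6 (SE 0.77) and −0.18 for Rhox9 (SE 0.53). None passed limma, and the share of all genes called there is not given here. From the largest fall among 290 X-linked genes they were the 2nd, 35th and 44th, with an X-linked median of −0.05.

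**Figure D3:**
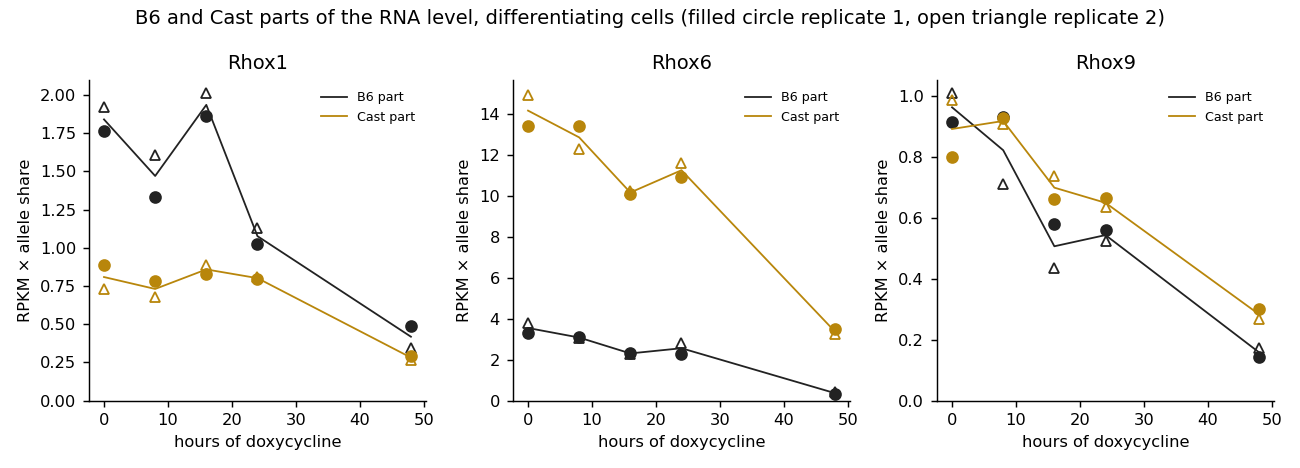
B6 and Cast parts of the RNA level (RPKM multiplied by each allele's share) of Rhox1, Rhox6 and Rhox9 over the differentiating course, each point being 1 library. Both parts are lowest at 48 h, including the Cast part of Rhox6, which goes from 13.4 and 14.9 RPKM to 3.51 and 3.22 RPKM.

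In undifferentiated cells naive pluripotency RNA stayed high over the day of doxycycline. No Rhox gene passed at any time in the main fit, which held no replicate term. Rhox1 at 24 h passed with a replicate block and without the 2 h library that stands apart. The spread between the replicates was larger than the changes for Rhox6 and Rhox9. At 0, 2, 4, 8, 12 and 24 h the replicates of Rhox6 read 5.55 and 17.8, 34.4 and 16.3, 6.65 and 16.9, 7.20 and 16.4, 5.80 and 15.3, and 4.92 and 12.8 RPKM. Rhox9 stood at 0.573 and 2.11, 6.69 and 1.82, 0.702 and 1.77, 0.715 and 1.62, 0.531 and 1.54, and 0.538 and 1.00 RPKM at the same times. Leaving out 2 h, every replicate 1 library of Rhox6 (4.92 to 7.20 RPKM) lay below every replicate 2 library (12.8 to 17.8 RPKM), and so did those of Rhox9 (0.531 to 0.715 against 1.00 to 2.11 RPKM). Rhox1 stood at 2.29 and 3.84, 10.4 and 2.94, 1.80 and 3.50, 1.95 and 3.09, 1.64 and 2.66, and 0.652 and 1.33 RPKM, with the 24 h value lowest in both replicates. The highest value of each of the 3 genes belongs to the 2 h library that stands apart.

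The same split between the replicates appeared in other gene groups. Outside 2 h, with 5 libraries in each replicate, Dazl, a germ cell RNA-binding protein gene, stood at 28.4 to 37.7 RPKM in replicate 1 and 68.9 to 103 RPKM in replicate 2, and the de novo methyltransferase gene Dnmt3b at 50.1 to 56.1 and 30.9 to 37.4 RPKM. Kdm6a stood at 3.29 to 4.22 RPKM in replicate 1 and 4.43 to 5.53 RPKM in replicate 2. Summed over each list, trophectoderm markers stood at 26.5 to 34.5 and 38.6 to 47.6 RPKM, primitive endoderm markers at 20.5 to 25.8 and 33.4 to 37.1 RPKM, and primordial germ cell markers at 151 to 182 and 205 to 226 RPKM. Germline genes (299 to 372 against 411 to 443 RPKM) and formative genes (92.7 to 98.3 against 101 to 109 RPKM) were also lower in replicate 1. Core pluripotency genes (987 to 1181 against 856 to 899 RPKM), the chromatin list (606 to 657 against 493 to 550 RPKM) and DNA methylation genes (637 to 695 against 555 to 606 RPKM) were higher in replicate 1, and naive genes overlapped (1413 to 1518 and 1391 to 1439 RPKM). Of the defining markers, Elf5, Hand1, Gata4 and Gata6 are not among the genes of that table. The part of these differences in the Rhox levels was not tested.

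At 24 h against 0 h the log2 change of Rhox1 was −1.26 (SE 0.56, unadjusted p = 0.054, limma adjusted p = 1), of Rhox9 −0.42 (SE 0.66, adjusted p = 1) and of Rhox6 −0.31 (SE 0.79, adjusted p = 1). Limma called 0 of 11612 genes (0%) lower at this time, and 90 genes in either direction had an unadjusted p under 0.05. With a block for the replicate and without the 2 h library that stands apart, the change of Rhox1 was again −1.26 and passed (limma adjusted p = 0.00036), one of 248 genes called in that fit, while Rhox6 (adjusted p = 0.19) and Rhox9 (0.24) did not pass. From the largest fall among 364 X-linked genes other than Xist, Rhox1 was the 4th, Rhox9 the 163rd and Rhox6 the 237th, with an X-linked median of −0.40.

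At 2 h the log2 changes were 0.82 for Rhox1, 1.20 for Rhox6 and 1.29 for Rhox9 (limma adjusted p = 0.55 each), with 0 of 11612 genes (0%) called by limma in either direction and 210 at an unadjusted p under 0.05. These rest on the library that stands apart: without it the values were −0.02 for Rhox1, 0.68 for Rhox6 and 0.47 for Rhox9. Those values set replicate 2 at 2 h against both replicates at 0 h, so they hold the difference between the replicates and show no rise. Within replicate 2 all 3 genes were lower at 2 h than at 0 h. Rhox1 went from 3.84 to 2.94, Rhox6 from 17.8 to 16.3 and Rhox9 from 2.11 to 1.82 RPKM. Without the other 2 h library, which leaves only the one that stands apart at 2 h, Rhox1 was at 1.65 and Rhox9 at 2.10. At 4, 8 and 12 h the log2 changes of the 3 genes lay between −0.42 and 0.11 and none passed (limma adjusted p = 1.0 each), with 0% of genes called lower and 0.00861% called higher at each of these times.

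The B6 shares of the replicates overlapped over the undifferentiated course, although Rhox9 was higher in replicate 1 at 5 of 6 times. At 0, 2, 4, 8, 12 and 24 h Rhox6 stood at 19.3% and 23.1%, 16.0% and 18.7%, 17.3% and 19.8%, 14.7% and 14.0%, 19.9% and 13.6%, and 13.1% and 16.3%. Rhox9 stood at 57.9% and 53.1%, 49.7% and 45.4%, 50.4% and 54.1%, 52.6% and 47.9%, 55.5% and 51.9%, and 45.0% and 42.3%. Rhox1 stood at 74.1% and 74.7%, 70.4% and 75.4%, 72.5% and 71.2%, 76.2% and 74.4%, 66.2% and 69.3%, and 69.2% and 61.3%. All 3 genes had lower shares in both 24 h libraries than in both 0 h libraries, and the share of all genes for which this holds was not counted. The X-linked median itself differed between the libraries of a time, with 43.2% and 47.7% at 8 h, 37.4% and 43.9% at 12 h, and 27.8% and 36.9% at 24 h.

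None of those changes passed the test at 24 h, and at 2 h, where limma called 0.0101% of genes in either direction, the adjusted p-values were 0.85 or more. The log2 odds changed by −0.68 for Rhox9 (SE 0.15, limma adjusted p = 0.12, or 0.058 with the replicate block), −0.62 for Rhox6 (SE 0.25, adjusted p = 0.77) and −0.61 for Rhox1 (SE 0.20, adjusted p = 0.45). The share was called lower for 0.852% of all genes and 28.6% of 290 X-linked genes, whose median change was −1.10. The 3 genes stood at the 225th (Rhox9), 239th (Rhox6) and 242nd (Rhox1) place from the largest fall.

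The courses were compared through the difference of their changes from 0 h, with all 22 RNA libraries in the fit. The RNA tables were normalized separately, and the library titles carry a different prefix in each course, so course and whatever the prefix stands for cannot be told apart. At 24 h, the latest time both courses have, the difference in level change (differentiating minus undifferentiated) was 0.85 for Rhox1 (SE 0.62, limma adjusted p = 0.55), −0.04 for Rhox6 (SE 0.88, adjusted p = 1.0) and −0.05 for Rhox9 (SE 0.74, adjusted p = 0.99). None passed, against 11.9% of 11865 genes called in either direction. With the replicate block and without the 2 h library that stands apart the difference of Rhox1 was 0.85 and passed (limma adjusted p = 3.3e-05). The share of all genes called in that fit is not given here, so the call is not read as particular to Rhox1. In that fit Rhox6 (−0.04, SE 0.13, limma adjusted p = 0.83) and Rhox9 (−0.05, SE 0.18, limma adjusted p = 0.83) did not pass.

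At 8 h the level differences were 0.01, −0.26 and −0.01 for Rhox1, Rhox6 and Rhox9 (limma adjusted p = 1.0 each), against 3.99% of genes called. At 0 h, before any doxycycline, they were −0.14, 0.79 and 0.49 (limma adjusted p = 1.0 each), with 0 genes (0%) called by limma and 744 at an unadjusted p under 0.05. Both differentiating 0 h libraries of Rhox6 (16.7 and 18.7 RPKM) lay near undifferentiated replicate 2 (17.8 RPKM) and above replicate 1 (5.55 RPKM), and those of Rhox9 (1.71 and 1.99 RPKM) likewise (2.11 and 0.573 RPKM). The share differences at 24 h were −0.15 for Rhox1 (limma adjusted p = 0.89), 0.48 for Rhox6 (0.53) and 0.31 for Rhox9 (0.67), against 3.22% of genes called. The 48 h fall has no counterpart in undifferentiated cells, which were followed to 24 h.

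Nascent transcription was low for Rhox1, Rhox6 and Rhox9, and Rhox5 was the most active. The median over all genes ran from 2.43 to 2.92 RPKM between libraries, and Rhox5 lay above it in every library. Rhox5 had 5.70 and 5.45 RPKM in the 0 h pair, 2.65, 5.18, 7.55, 4.03, 3.13 and 2.68 RPKM in the single libraries of 0.5, 1, 2, 4, 8 and 12 h, and 3.10 and 5.45 RPKM in the 24 h pair. The 24 h pair spanned from below to the level of the 0 h pair. Rhox1 had 0.974 and 0.665 RPKM in the 0 h pair, then 0.618, 0.233, 1.11, 0.737, 0.486 and 1.25 RPKM, and 0.793 and 0.537 RPKM in the 24 h pair. Rhox6 ranged from 0 to 0.720 RPKM (median 0.422) and was at 0 in 2 libraries, and Rhox9 ranged from 0 to 0.511 RPKM (median 0.134) and was at 0 in 3. In RPKM, a level per length, Rhox6 was thus the highest of the 3 genes listed in the RNA tables but lay below Rhox1 in the nascent median.

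The change in nascent level at 24 h against 0 h, tested on allele-assigned reads, did not pass for Rhox5 (log2 change −0.89, SE 0.43, edgeR quasi-likelihood adjusted p = 0.65) or Rhox1 (−1.36, SE 0.76, edgeR adjusted p = 0.68). These changes rest on 75 allele-assigned reads at 0 h and 37 at 24 h for Rhox5, and on 33 and 11 for Rhox1. Mean RPKM moved less, from 5.58 to 4.27 for Rhox5 and from 0.820 to 0.665 for Rhox1. EdgeR called 0.00593% of 16870 genes lower at this time, and 1302 genes had an unadjusted p under 0.05. Rhox6 and Rhox9 had at most 1 allele-assigned read in a library and were not tested.

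The B6 share of nascent Rhox5 rests on few reads. At 0 h the B6 allele had 9 of 32 and 15 of 43 reads, together 32.0% (95% exact Clopper-Pearson interval 21.7 to 43.8%), and at 24 h 3 of 16 and 5 of 21 reads, together 21.6% (9.83 to 38.2%). The single libraries of 0.5, 1, 2, 4, 8 and 12 h gave 6 of 16, 5 of 14, 17 of 29, 5 of 13, 17 of 33 and 5 of 12 reads. The highest single value, at 2 h, was 58.6% (38.9 to 76.5%). The change at 24 h was −0.74 on the log2 scale (SE 0.83, edgeR adjusted p = 0.96), against 0.806% of all genes and 30% of X-linked genes called lower. These intervals overlap and cover counting error only, not the spread between libraries. The reads carry no molecular identifiers, so copies of a molecule cannot be told from separate molecules, and even the counting error may be understated.

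Nascent Rhox1 reads leaned to the other allele than its RNA. The B6 allele had 0 of 12 and 5 of 21 reads at 0 h, together 15.2% (5.11 to 31.9%), and 3 of 7 and 1 of 4 reads at 24 h, together 36.4% (10.9 to 69.2%). Over all 10 libraries it had 13 of 77 reads, whereas the RNA share of Rhox1 in undifferentiated cells lay between 61.3% and 76.2% in every library. With fewer than 20 allele reads per library on average, the share of nascent Rhox1 was not tested. Allele-assigned reads did not always follow the RPKM: the neighbouring gene Akap14 had 32 such reads in the 0 h pair at 0 RPKM. Whether the allele-assigned reads of Rhox1 and Rhox5 came from their own transcripts was not tested.

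**Figure D4:**
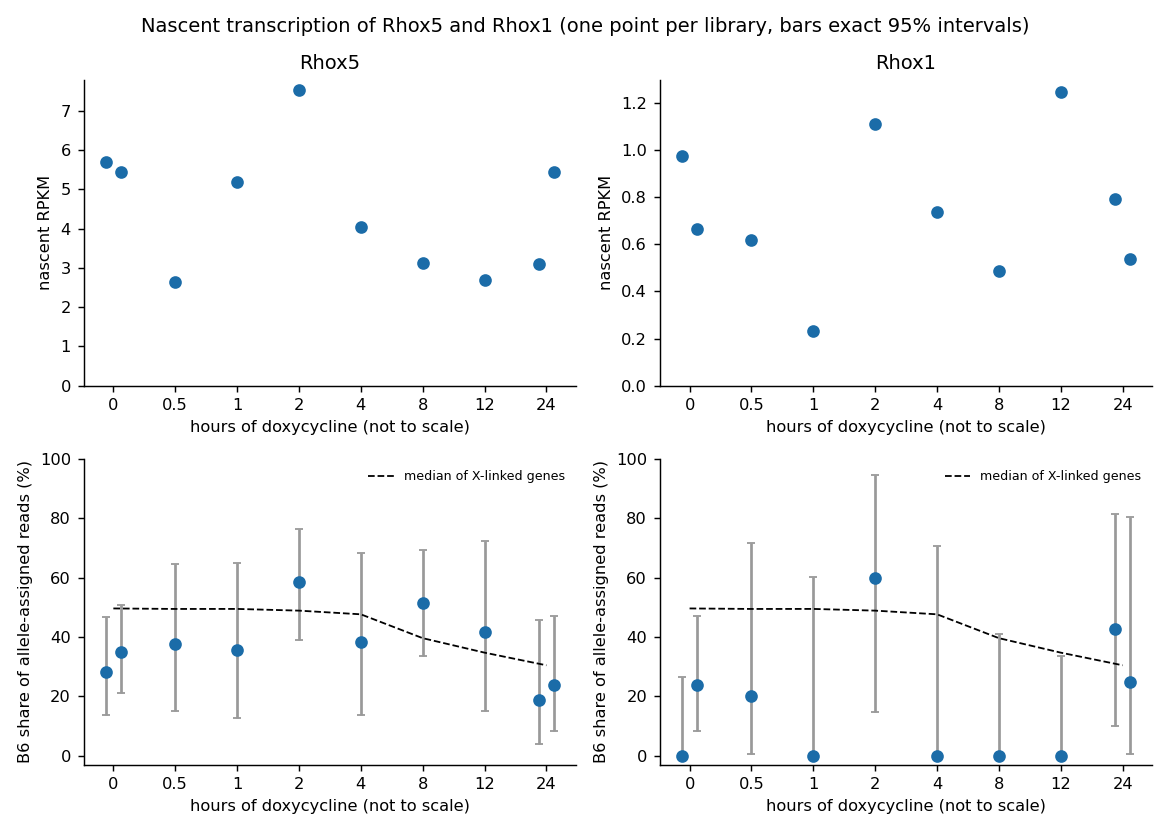
Nascent level (PRO-seq RPKM, upper panels) and B6 share (percent of allele-assigned reads, bars the 95% exact intervals, lower panels) of Rhox5 and Rhox1 against hours of doxycycline, each point being 1 library and the dashed line the X-linked median share. Rhox5 lies above Rhox1 at every time, and the intervals of the share are wide, as at 2 h for Rhox5 (38.9 to 76.5%).

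Other genes of the cluster were at or near the floor. Rhox13 ranged from 0.0714 to 2.97 RPKM (median 0.265) in undifferentiated RNA, where the highest value belongs to the 2 h library that stands apart and the next is 0.333 RPKM, and from 0.108 to 0.294 RPKM in differentiating RNA, and Rhox2h from 0.217 to 0.591 RPKM in differentiating RNA. In PRO-seq, Rhox2c, Rhox3c and Rhox3g were listed at 0 in all 10 libraries, and Rhox4g ranged from 0 to 0.0937 RPKM with 7 libraries at 0.

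The genes most like each member were sought over 22 RNA libraries among 10120 genes, as a description in which the libraries share time and course. Rhox6 and Rhox9 were each other's nearest (Pearson r = 0.934 on log2(RPKM + 0.5)), a pair that also shares sequence, as the 161-base stretch shows. Rhox6 was followed by 2200002D01Rik (0.840) and Rhox1 (0.836), and Rhox9 by Rhox1 (0.888) and Nudt11 (0.888). Rhox1 was nearest to Praf2 (0.893), Ubqln2 (0.890) and Rhox9 (0.888). Without the 2 h library that stands apart, Rhox6 and Rhox9 stayed nearest to each other (0.969), Rhox6 was followed by Neto2 (0.948) and Hs2st1 (0.928), Rhox9 by Usp40 (0.887) and Neto2 (0.881), and Rhox1 was nearest to Usp36 (0.867), Rundc3b (0.865) and Gm18336 (0.861).

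Of 13 other X-linked genes within 500 kb of the cluster, 5 are in the RNA tables and 4 had a tested level in the differentiating course. At 48 h these 4 had smaller level changes than the Rhox genes. Nkap, which encodes a nuclear repressor and splicing factor, fell by 0.57 in level (limma adjusted p = 4.0e-07), Zbtb33, which encodes the methyl-DNA binding protein Kaiso, fell by 0.27 (0.0039), Lamp2, a lysosomal membrane protein gene, fell by 0.23 (0.0021), and Upf3b, a nonsense-mediated decay factor gene, did not pass (−0.08, 0.26). At 24 h, however, Lamp2 had fallen by 1.17 (limma adjusted p = 1.9e-09), more than any Rhox gene at that time, and from 24 to 48 h it rose by 0.95 (limma adjusted p = 1.5e-08). A test of the difference from the Rhox genes was not made. The B6 share of Nkap went from 47% to 32.9% (log2 odds −0.83, limma adjusted p = 0.00099), and its Cast part fell by 0.24 (limma adjusted p = 0.011), beside 1.92 for Rhox6. Mean shares of Upf3b, Zbtb33 and Lamp2 fell further, from 57.0% to 32.1%, from 56.1% to 24.3% and from 50.0% to 25.8%. These genes averaged under 1 RPKM in this course, so their shares were not tested.

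Marker RNA of pluripotency also moved over the differentiating course. Of 11 naive pluripotency genes tested 10 fell and 1 rose at 48 h (median log2 change −2.25), among them Prdm14 (−4.31), Tbx3 (−4.24), Tfcp2l1 (−3.68) and Klf4 (−3.64). Of 7 formative genes 6 rose and 1 fell (median 2.44), among them Fgf5 (5.55) and Otx2 (3.96). Of 5 core pluripotency genes 3 fell and 2 rose (median −0.46). The medians stand beside 0.03 for all genes, of which 39.9% were called lower and 44.4% higher. Summed naive markers went from 1507 to 1508 RPKM at 0 h to 374 to 391 RPKM at 48 h, and were 1391 to 1518 RPKM in the undifferentiated libraries outside 2 h.

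Some genes stand in several lists, as Prdm14 does. Genes of DNA methylation did not move as one group: 4 of 10 rose and 5 fell at 48 h (median −0.05). The de novo methyltransferase genes Dnmt3a (2.69) and Dnmt3b (2.40) and their cofactor Dnmt3l (4.19) rose, and Prdm14, a repressor of de novo methyltransferases in naive cells, fell. Dnmt3b stood at 51.0, 89.5, 155, 211 and 271 RPKM at 0, 8, 16, 24 and 48 h (means of 2 libraries), and Dnmt3a at 6.46, 13.4, 30.4, 43.0 and 44.5 RPKM. Both were well above their 0 h level by 24 h. At that time Rhox6 stood at 13.2 and 14.4 RPKM and was already called lower than at 0 h. A link between these levels was not tested. Methylation itself was not measured in these files.

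Of 9 genes of the chromatin list tested, which holds the demethylases Kdm6a and Kdm6b and repressors such as Ehmt1, Ehmt2, Setdb1 and Trim28, 3 fell and 3 rose at 48 h (median 0.03). Trim28, a corepressor, fell by 0.53, and Ehmt1, which encodes a histone H3 lysine 9 methyltransferase, rose by 0.50. Kdm6a did not pass (0.10, limma adjusted p = 0.069) and stood at 4.13, 4.57, 4.03, 4.13 and 4.45 RPKM over the times.

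Germline genes, many of which share repression by DNA methylation with the Rhox cluster, did not follow the Rhox genes as a group: 12 of 20 tested rose and 7 fell at 48 h (median 0.27). Sycp3 (3.30), of the synaptonemal complex, Dpep3 (2.78) and Mael (2.69), of the piRNA pathway, rose, and Dazl (−2.81) fell. Of 7 primordial germ cell genes 5 fell, among them Nanos3 (−2.79) and Tfap2c (−1.69), and 2 rose (median −1.19), with a summed level of 201 to 214 RPKM at 0 h and 84.1 to 86.3 RPKM at 48 h.

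Markers of the extraembryonic lineages, in which Rhox genes are known to be expressed, moved in both directions. Of 7 trophectoderm genes tested 4 rose and 3 fell (median 1.76). Those that rose most were the keratin genes Krt18 (4.80) and Krt8 (2.49), which other epithelial cells also express, while Cdx2, a defining transcription factor, fell (−3.93), and the summed level went from 42.0 to 43.9 RPKM to 159 to 172 RPKM. Of 4 primitive endoderm genes tested 2 fell and 1 rose (median −0.23), with sums of 25.9 to 26.9 and 12.7 to 13.8 RPKM; Foxa2, Gata6 and Pdgfra are not among the genes of the table. The part of these cells in the Rhox levels was not tested.

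In undifferentiated cells 0 genes of any of these lists passed limma at 24 h, beside the 0% of all genes called lower and 0.00861% called higher.

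**Figure D5:**
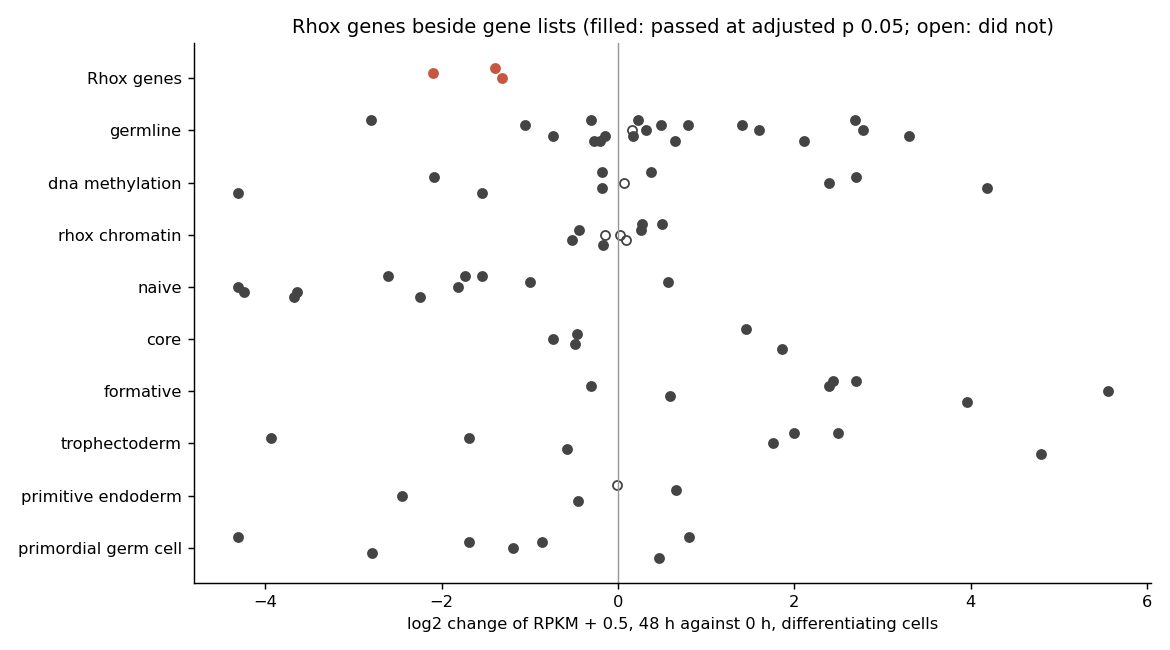
Change in RNA level at 48 h against 0 h of the differentiating course (log2(RPKM + 0.5) scale) for Rhox1, Rhox6 and Rhox9 and for the genes tested of each list, each point being 1 gene, filled where it passed limma at an adjusted p of 0.05. The 3 Rhox genes lie at −1.40, −2.10 and −1.32, beside list medians of −2.25 for naive, −1.19 for primordial germ cell, 0.27 for germline and 2.44 for formative genes.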

How the data were processed

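Files were processed tables of nascent transcription (PRO-seq, 10 libraries) and polyadenylated RNA (22 libraries) of TX1072 cells. The authors deposited counts of B6 and Cast reads per gene, the fraction of B6 reads and RPKM for PRO-seq, and the fraction and RPKM, with no counts, for RNA. Per the submitters' processing notes cutadapt 1.8.2, Bowtie 1.0.0, TopHat2 2.1.0, SAMtools, HTSeq 0.6.1 and mm10 were used; the role of each, the assignment of reads to alleles and the use of strand in counting are not given in the sources used here.

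RNA levels were tested with limma 3.58.1 (R 4.3.3) on log2(RPKM + 0.5) keeping genes that averaged 0.5 RPKM or more. B6 shares were tested as log2 odds with a pseudocount of 0.01 keeping genes that averaged 1 RPKM or more and had a share in every library. PRO-seq reads were tested with edgeR 4.0.16 (quasi-likelihood, TMM), shares where genes averaged 20 or more allele reads; DESeq2 1.42.0 was an alternative. Tests were two-sided, fitted over all genes and all libraries of a course, with Benjamini-Hochberg adjusted p under 0.05 as the threshold. The scripts were tested on simulated data. The members and gene lists were chosen with earlier results of these data known, and the chromatin, methylation, germline and marker lists only describe the samples. Members were named throughout, every other Rhox gene by its range, the 3 genes most alike per member, and up to 4 called genes per list by size of change.

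Replicates of the undifferentiated RNA course follow the order of the titles, the first 6 against the last 6. The differences between replicates correlated between times at 0.327 to 0.902 over all 15 pairs of times, so these were taken as pairs. In the differentiating course the 10 correlations ran from −0.119 to 0.246, and in PRO-seq the single one was 0.0322, so these were not. The main fits of the RNA courses held no replicate term, and pairing entered only the alternative fits with a replicate block. Sequences are from GENCODE M21 transcripts (GRCm38).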

Additional observations from a re-analysis of the deposited data

How the results depend on the processing

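The falls of Rhox1, Rhox6 and Rhox9 in differentiating cells at 24 h and 48 h, and of Rhox6 and Rhox9 at 16 h, kept their call under every alternative run; pseudocounts of 0.1 and 1 moved the 48 h values to −1.79 and −1.10 for Rhox1, −2.21 and −1.98 for Rhox6 and −1.85 and −0.98 for Rhox9. Depth is unknown for RNA, and few allele reads limit the nascent values. Causes were not tested. Changes below are log2.

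Beyond single libraries, 9 values changed sign or side of the threshold. With the replicate block and without undifferentiated 2 h replicate 1, Rhox1 was −0.34 at 2 h and −1.26 at 24 h (now passed), its course difference 0.85 at 24 h (now passed), and its share 0.12 at 2 h in undifferentiated cells. The replicate block with all libraries kept changed no call of the 3 genes. The replicates are paired within a course, so no blocked value is given for the 0 h difference between courses. A pseudocount of 0.1 turned Rhox9 at 4 h to 0.0067; a pseudocount of 1 turned its 8 h course difference to 0.0013 and median-ratio scaling to 0.031. With the compared libraries only, the 48 h shares of Rhox6 (−1.15) and Rhox9 (−0.94) lost their call.

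Leaving out 1 library at a time gave these ranges. Undifferentiated levels ran from −0.016 to 1.65 (Rhox1) at 2 h; from −0.60 to 0.20 (Rhox1), −0.72 to 0.88 (Rhox6) and −0.66 to 0.62 (Rhox9) at 4 h; from −0.55 to 0.088, −0.69 to 0.91 and −0.70 to 0.58 at 8 h; from −0.88 to 0.72 (Rhox6) and −0.85 to 0.43 (Rhox9) at 12 h; and from −1.11 to 0.49 (Rhox6) and −1.06 to 0.22 (Rhox9) at 24 h. Rhox9 at 8 h of the differentiating course ran from −0.16 to 0.015. Level differences between courses ran, for Rhox1, Rhox6 and Rhox9, from −0.46 to 0.18, −0.015 to 1.59 and −0.15 to 1.13 at 0 h, from −0.31 to 0.33, −1.06 to 0.54 and −0.65 to 0.63 at 8 h, and from 0.52 to 1.19, −0.84 to 0.76 and −0.69 to 0.59 at 24 h. Undifferentiated shares ran from −0.28 to 0.072 (Rhox1, 2 h) and −0.24 to 0.033 (Rhox9, 12 h). Differentiating shares ran from −0.42 to 0.058 (Rhox1, 8 h), −0.22 to 0.18 (Rhox1, 16 h), −1.43 to −0.88 (Rhox6, 48 h), −1.14 to −0.73 (Rhox9, 48 h) and −0.060 to 0.31 (Rhox1, 48 against 24 h). Share differences between courses ran from −0.25 to 0.060 (Rhox6, 0 h), −0.16 to 0.19 (Rhox9, 8 h) and −0.39 to 0.10 (Rhox1, 24 h).

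Over all genes, the level difference between courses at 24 h was called for 1413 genes, for 2773 with the replicate block and for 952 to 6098 without 1 library; the share difference for 315, 528 with the block and 55 to 680. Undifferentiated shares at 24 h were called for 86 genes, a number the block raised by over 1.5 times, and for 0 with the compared libraries only. Differentiating shares at 48 h were called for 2338 genes, or 1356 at the lowest. Nascent levels were called for 2 genes, 207 with no filter and 1259 without 0 h replicate B, and nascent shares for 113 genes, or 27 with DESeq2.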
